A study of Mus musculus with 6 samples.

Results

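Ion channel genes of the voltage-gated and TRP families were examined in whole sciatic nerves of mice. The genes were every row whose symbol names a sodium (Scn), potassium (Kcn), calcium (Cacn), HCN, CLC or TRP (Trpa, Trpc, Trpm, Trpv) channel subunit and that had at least 10 reads in 3 or more libraries. Of 24421 genes in the count files, 175 had such a symbol and 110 met the minimum. The groups are 3 cKO libraries, which the labels give as YAP/TAZ-DBL-cKO, and 3 wild-type (WT) libraries, and the design text names 3 mice of each kind. YAP and TAZ are transcriptional co-activators that work through TEAD factors. The sources used here do not give the alleles, the Cre driver, the age of the mice or whether nerves were pooled, and the series' title places the study in Schwann cells, the glia that ensheath and myelinate axons.

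Voltage-gated channels open when the membrane potential changes. Their large alpha subunits form the pore, and smaller auxiliary subunits set their number and gating. In myelinated nerve, sodium channels cluster at the nodes of Ranvier and potassium channels of the Kcna group lie under the myelin beside the node. These proteins are in the axon, whose RNA is made mainly in cell bodies outside the nerve. Schwann cells have channels of their own, among them the inward rectifier Kcnj10 and the atypical sodium channel Scn7a, which is known from nonmyelinating Schwann cells and senses sodium concentration more than voltage.

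Gene counts per library came to 24651262 to 32003497 in cKO and 41270894 to 47044158 in WT. Levels are CPM, the reads of a gene per 1000000 gene counts, scaled by TMM factors. The nerve label held in all libraries: 8 Schwann cell markers summed to 17448 to 28215 CPM in cKO and 64025 to 90408 CPM in WT, with 4 lower, among them Mbp, Prx and Egr2, and 4 not called, among them Sox10, S100b and Erbb3. Yap1 stood at 108, 109 and 103 CPM in cKO 1 to 3 and at 120, 124 and 122 CPM in WT 1 to 3 (edgeR adjusted p = 0.145). Wwtr1, the gene of TAZ, was higher in cKO (edgeR adjusted p = 0.0208), so whole-gene counts do not check the genotype labels and every direction rests on the labels. A set of 14 skeletal muscle genes also separated the groups, at 4518 to 9496 CPM in cKO and 453 to 1710 CPM in WT, with 13 called higher.

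Genes of both directions were called. Of 106 tested, 12 were higher and 13 lower in cKO nerve (edgeR quasi-likelihood test, Benjamini-Hochberg adjusted p under 0.05 over all genes), or 23.6%, against 10.9% of all 14789 genes tested. Without the 4 tested rows that carry a channel symbol but are not channels, 11 were higher and 12 lower of 102, or 22.5%. By direction the background was 4.77% of all genes higher and 6.17% lower. Changes of 2-fold or more were found in 19 of the 25. The median log2 fold change (cKO over WT) of the channel genes was 0.08, against 0.02 for all genes. In all 25 the cKO and WT libraries did not overlap, and the groups did not overlap for 49 of the 106 channel genes, against 31.1% of all genes. The other 4 channel genes, Clcn1, Kcnc1, Kcnk7 and Kcnn2, met the minimum of 10 reads but not the filter of the test. Nearest the minimum were Kcnc2, with 13, 8 and 7 reads in cKO and 13, 0 and 10 in WT, just inside, and 4 tied rows just outside, Kcnj15, Kcnj3, Kcnk4 and Kcnmb1, of which Kcnk4 had 1, 7 and 5 reads in cKO and 12, 9 and 10 in WT. Of the 65 rows outside, 12 were at 0 in every library and the highest single count was 25.

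**Figure D1:**
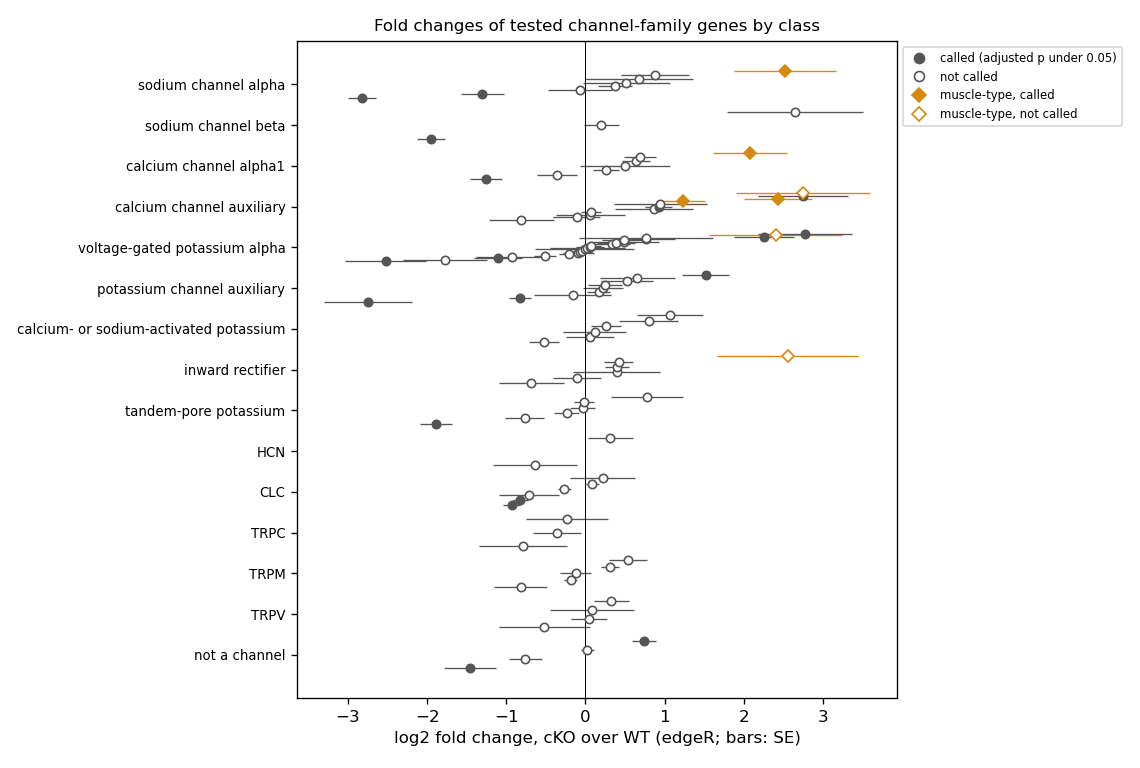
Log2 fold changes (cKO over WT, x axis) of tested genes by channel class (y axis), with SE bars; filled marks passed the test and diamonds are muscle-type channels. The filled marks at the far left include Scn7a, Kcnip2 and Kcna4, and no TRP channel is filled.

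The start-site regions of 4 of the genes are shown because these genes carry the largest sodium and tandem-pore decreases (Scn7a, Kcnk1), the increase with the smallest adjusted p (Kcnf1) and the muscle-type pore (Cacna1s). Each is RefSeq's window on GRCm38.p6, 250 bases before to 50 after the start, in the direction of the gene: Scn7a at chr2:66784861-66785160 (minus strand), Kcnk1 at chr8:125994852-125995151 (plus), Kcnf1 at chr12:17176839-17177138 (minus) and Cacna1s at chr1:136052561-136052860 (plus). Capitals mark matches to the 4 motifs searched on both strands.
Scn7a: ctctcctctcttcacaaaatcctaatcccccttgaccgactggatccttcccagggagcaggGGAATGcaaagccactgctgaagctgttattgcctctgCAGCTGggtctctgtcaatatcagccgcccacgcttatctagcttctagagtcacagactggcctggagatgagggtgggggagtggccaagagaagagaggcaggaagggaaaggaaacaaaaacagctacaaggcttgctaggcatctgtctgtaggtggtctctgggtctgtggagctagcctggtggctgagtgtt
Kcnk1: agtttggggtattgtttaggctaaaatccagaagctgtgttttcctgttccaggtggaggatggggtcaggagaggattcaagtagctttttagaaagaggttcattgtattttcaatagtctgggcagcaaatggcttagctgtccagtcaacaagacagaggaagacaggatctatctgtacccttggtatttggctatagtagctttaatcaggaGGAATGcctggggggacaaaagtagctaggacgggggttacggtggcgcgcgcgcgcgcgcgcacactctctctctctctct
Kcnf1: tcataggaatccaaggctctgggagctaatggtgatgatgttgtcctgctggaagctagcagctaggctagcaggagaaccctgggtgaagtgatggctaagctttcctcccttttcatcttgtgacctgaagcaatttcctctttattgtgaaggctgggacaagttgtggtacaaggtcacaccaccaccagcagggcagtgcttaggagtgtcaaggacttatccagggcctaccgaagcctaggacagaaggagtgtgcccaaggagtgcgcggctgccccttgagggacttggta
Cacna1s: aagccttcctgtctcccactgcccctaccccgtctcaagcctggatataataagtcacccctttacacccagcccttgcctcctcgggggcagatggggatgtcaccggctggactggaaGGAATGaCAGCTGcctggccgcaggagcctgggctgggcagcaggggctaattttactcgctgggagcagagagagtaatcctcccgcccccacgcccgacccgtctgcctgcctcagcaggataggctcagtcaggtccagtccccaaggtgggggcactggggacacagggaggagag
The motifs were GGAATG (TEAD factors), CAGCTG (an E-box of muscle regulators), ACAAAG (SOX factors) and CTA and TAG with any 4 bases between (MEF2 factors), and no match overlaps another in the 4 regions. GGAATG begins at -188 in Scn7a, -32 in Kcnk1 and -130 in Cacna1s, and CAGCTG at -150 in Scn7a and -123 in Cacna1s, counted from the start. Of windows of the 82 channel genes found in the table, 4 of 12 from lower genes, 2 of 10 from higher genes and 13 of 90 from genes that were not called held GGAATG, against 14.7% of all 32817 windows. CAGCTG was in 1 of 12, 3 of 10 and 26 of 90 windows (16.3% of all), ACAAAG in 2, 0 and 17 (18.7% of all), and the MEF2 letters in 0 of these (3.69% of all). A match is a run of letters, not a site in use.

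Among sodium channel pores, Scn7a fell most. It stood at 13.4, 16.0 and 16.2 CPM in cKO 1 to 3 and at 85.8, 100 and 136 CPM in WT 1 to 3. The cKO libraries lay close together and far below every WT library. The gene (chromosome 2, 66673425 to 66784914, minus strand) fell 7.07-fold (log2 -2.82 ± 0.18, SE, n = 3 per group, edgeR adjusted p = 0.000162). In whole nerve, fewer cells of a type and less RNA per cell cannot be told apart. Other markers of nonmyelinating Schwann cells did not all go down: of the list of 7 with Scn7a, Ngfr and Cdh2 were also lower and Sox2 higher, and the 6 without Scn7a summed to 441 to 493.1 CPM in cKO and 387.7 to 529.9 CPM in WT, which overlap. Their part in the result was not tested.

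Scn9a, the neighbouring sodium channel gene on chromosome 2 (66480080 to 66634962) and a channel of sensory axons, was also lower. It had 1.06, 1.52 and 1.76 CPM in cKO and 3.66, 3.80 and 3.23 CPM in WT, without overlap (log2 -1.30 ± 0.27, edgeR adjusted p = 0.0166, or 0.0600 without WT 2). The other pores of that chromosome, Scn1a, Scn2a1 and Scn3a, were at or under 2.52 CPM in every library and were not called. Per kilobase of exon, Scn7a made up 66.0 ± 3.42% of the 8 sodium channel pores in cKO and 94.7 ± 1.02% in WT (SD, n = 3 each), and the summed level of the 8 was 3.15 ± 0.451 CPM per kilobase in cKO and 15.4 ± 3.55 in WT. Both differences had an exact two-sided permutation p of 0.1, the smallest that 3 against 3 allows. Scn7a, already called, is most of both sums, so neither p adds support and the sum does not show a fall of the other pores. Among those, Scn9a was lower, Scn4a higher and 5 not called.

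Among the auxiliary beta subunits, which bind the pores and act as adhesion molecules, Scn3b was lower. Scn3b (chromosome 9, 40269217 to 40291618) stood at 19.3, 28.1 and 24.0 CPM in cKO and at 76.2, 88.0 and 112 CPM in WT, a fall of 3.87-fold (log2 -1.95 ± 0.17, edgeR adjusted p = 0.000452). The cKO libraries lay together, well below every WT library. Scn3b was 34.4 ± 3.23% of the 4 beta subunits per kilobase in cKO and 77.6 ± 3.39% in WT. Scn2b (log2 0.20 ± 0.22) and Scn4b (2.64 ± 0.86) did not pass, although Scn4b did with DESeq2 and without WT 1.

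**Figure D2:**
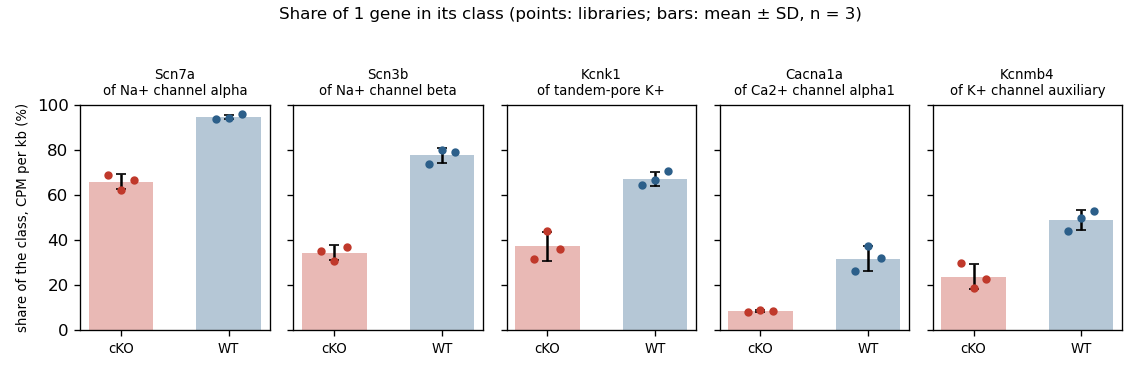
Share of 1 gene in the summed level of its channel class (y axis, percent of CPM per kilobase of exon), with points for libraries and bars for mean ± SD of 3 cKO and 3 WT libraries. Scn7a was 66.0% of its class in cKO and 94.7% in WT, and in each of the 5 panels all cKO points lie below all WT points. A share also depends on the other genes of the class. Cacna1s was 0.798 CPM per kilobase in WT and 3.39 in cKO, and Kcne1l was 4.75 in WT and 13.7 in cKO. These higher levels lower the Cacna1a and Kcnmb4 shares in cKO.

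Among potassium channels, the tandem-pore channel Kcnk1, which gives background potassium current, had the fall with the smallest adjusted p. Kcnk1 stood at 19.4, 34.4 and 24.5 CPM in cKO and at 83.8, 89.2 and 116 CPM in WT. The highest cKO library was well under the lowest WT library (3.70-fold lower, log2 -1.89 ± 0.21, edgeR adjusted p = 0.000941; chromosome 8, 125995170 to 126030685). Kcnk1 was 37.3 ± 6.45% of the 7 tandem-pore genes per kilobase in cKO and 67.2 ± 3.14% in WT. None of the other 5 tested was called by edgeR, DESeq2 called Kcnk13 lower as well, Kcnk3 passed with edgeR without WT 3, and Kcnk2, a channel gated by stretch and lipids, was 7.93 ± 1.33 CPM per kilobase in cKO and 8.04 ± 0.566 in WT.

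Auxiliary potassium subunits included both directions. Kcnmb4, the neuronal-type partner of the calcium-activated channel Kcnma1, had 24.9, 22.2 and 18.9 CPM in cKO and 33.8, 39.6 and 43.8 CPM in WT (log2 -0.83 ± 0.14, edgeR adjusted p = 0.00655). It shares 20.8% of its exon bases with the antisense gene Kcnmb4os2, which was not called (log2 -0.76 ± 0.21) but passed with DESeq2, DESeq2's size factors, no filter and without WT 3, and no source used here gives the strand setting of the counting. Kcnip2, a calcium sensor that binds Kcnd channels, had 0.241, 0.857 and 0.220 CPM in cKO and 1.71, 3.77 and 3.12 CPM in WT (log2 -2.74 ± 0.55, edgeR adjusted p = 0.0145, lost without cKO 1 or cKO 3, at most 0.0708). Its level was low in both groups. Only 1 cKO library reached 10 reads, against 3 of WT, so Kcnip2 needed WT, the group where it was higher, to meet the minimum. Kcne1l, which modulates Kcnq channels, was higher, with 14.9, 31.2 and 17.3 CPM in cKO and 9.59, 6.20 and 6.20 CPM in WT (log2 1.52 ± 0.30, edgeR adjusted p = 0.0122).

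Of 23 tested pores of voltage-gated potassium channels, 3 were higher and 2 lower, or 21.7%, against 10.9% of all genes. The lower ones were Kcna4, with 0.121, 0.156 and 0.220 CPM in cKO and 0.606, 0.975 and 1.34 CPM in WT (log2 -2.53 ± 0.51, edgeR adjusted p = 0.0147), and Kcnq5, whose channels pass the slow M-type current, with 1.72, 1.87 and 1.98 CPM in cKO and 2.49, 4.50 and 4.99 CPM in WT (log2 -1.10 ± 0.30, edgeR adjusted p = 0.0491). Kcna4 met the minimum through WT only, the group where it was higher, and its call was lost without cKO 1, cKO 2 or cKO 3 (adjusted p up to 0.0550). Kcnq5 lost its call when any library but WT 1 was left out (adjusted p up to 0.153) and with upper-quartile factors, total counts, limma-voom and the filter of 50 counts.

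Kcnf1, a subunit that forms no channel alone and modifies Kcnb channels, had 2.23, 2.84 and 3.36 CPM in cKO and 0.865, 0.400 and 0.479 CPM in WT. Its lowest cKO library was above its highest WT library (4.78-fold higher, log2 2.26 ± 0.38, edgeR adjusted p = 0.00659). Kcnc4, a fast-inactivating channel, had 2.96, 7.36 and 2.29 CPM in cKO and 0.757, 0.200 and 0.857 CPM in WT (log2 2.78 ± 0.59, edgeR adjusted p = 0.0179, or 0.0621 without cKO 2). Like the summed muscle genes, it was highest in cKO 2 and lowest in WT 2. In the fit with the level of muscle RNA as a covariate, Kcnc4 had log2 -0.10 ± 0.77 (edgeR adjusted p = 0.991). The part of muscle RNA in its rise was not tested.

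The most abundant channel genes per kilobase were Kcna1 and Kcnj10, and neither passed. Kcna1, whose protein is known from the axon beside the node, had 309, 412 and 405 CPM in cKO and 347, 383 and 342 CPM in WT, overlapping. Per kilobase it came to 78.5 ± 12.1 CPM in cKO and 74.8 ± 4.69 in WT (log2 fold change 0.07 ± 0.12). For scale, all 10 neuronal marker genes summed to 98.07 to 135.9 CPM in cKO and 92.97 to 107.4 CPM in WT. Which cells made the Kcna1 RNA was not tested. Kcnj10, which buffers potassium in glia, had 304, 385 and 368 CPM in cKO and 296, 293 and 212 CPM in WT, without overlap, or 65.2 ± 7.91 CPM per kilobase in cKO and 49.4 ± 8.76 in WT (log2 0.40 ± 0.15, edgeR adjusted p = 0.127). In WT nerve Kcnk1 came next, at 43.1 ± 7.75, which overlapped Kcnj10 (39.3 to 54.7 CPM per kilobase in WT), followed by Kcna6 at 24.4 ± 2.51 and Kcna2 at 23.5 ± 1.51, which differed from each other by less than their spread. Kcna2 stood at 155, 230 and 205 CPM in cKO and at 263, 278 and 299 CPM in WT. Its groups did not overlap, but its adjusted p of 0.0501 missed the threshold (edgeR, log2 -0.51 ± 0.14), and it passed with DESeq2, limma-voom, DESeq2's size factors and no filter, and without cKO 2. The tested inward rectifiers (6) and calcium- or sodium-activated potassium channels (6) had 0 calls by edgeR, DESeq2 or limma-voom. With edgeR 10.9% of all genes were called, so 0 calls among so few genes do not set these classes apart. They had 3 and 2 genes at an unadjusted edgeR p under 0.05, and Kcnj8 passed without WT 3. Kcnn1, the highest of the activated group per kilobase, had 5.64, 4.99 and 6.31 CPM in cKO and 5.06, 4.27 and 4.81 CPM in WT, with overlap.

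**Figure D3:**
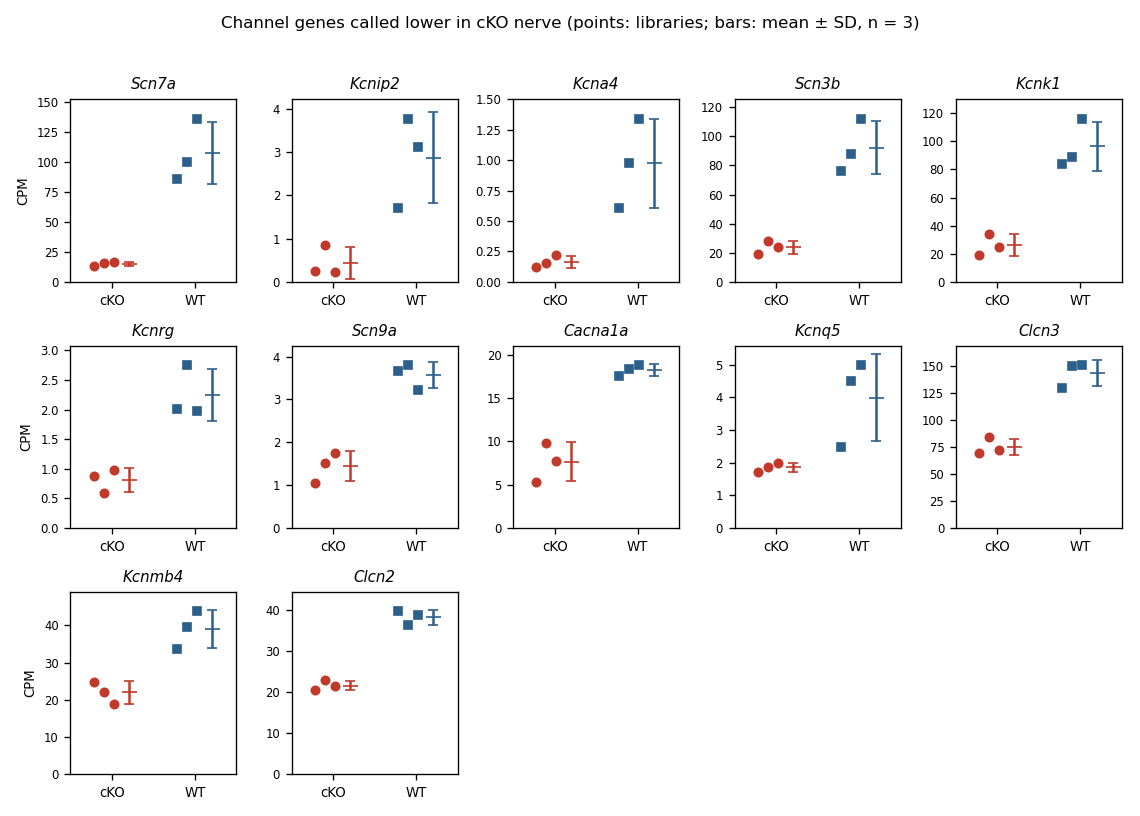
CPM (y axis, from 0) of genes called lower, in 3 cKO (circles) and 3 WT (squares) libraries, with mean ± SD. In each panel all cKO points lie below all WT points; Scn7a has the largest log2 change (-2.82).

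Of 7 calcium channel pores tested, 1 was lower (Cacna1a) and 1 higher (Cacna1s), or 28.6%, against 10.9% of all genes. The other 5 were not called, among them Cacna1b (log2 0.50 ± 0.57). Cacna1a, the pore of the channel for transmitter release at nerve endings, had 5.37, 9.85 and 7.76 CPM in cKO and 17.5, 18.4 and 18.8 CPM in WT. WT libraries lay within a narrow range above all cKO libraries (2.39-fold lower, log2 -1.25 ± 0.20, edgeR adjusted p = 0.00584; chromosome 8, 84388440 to 84640246). Cacna1a was 8.54 ± 0.393% of the 7 calcium channel pores per kilobase in cKO and 31.8 ± 5.50% in WT, and the muscle pore Cacna1s was 42.2 ± 8.01% in cKO and 15 ± 7.21% in WT. The low-threshold pores Cacna1h (log2 0.64 ± 0.18, edgeR adjusted p = 0.0531) and Cacna1g (0.69 ± 0.20, edgeR adjusted p = 0.0665) did not pass; Cacna1h passed with upper-quartile factors, total counts, no filter and DESeq2 and without cKO 1 or WT 1, and Cacna1g with total counts and DESeq2 and without WT 1.

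Of 11 auxiliary calcium channel subunits, 4 were higher and 0 lower, or 36.4%, against 10.9% of all genes. Cacna2d1, which brings pores to the membrane and binds gabapentin, had 24.2, 33.2 and 27.4 CPM in cKO and 14.6, 12 and 18.1 CPM in WT (log2 0.92 ± 0.18, edgeR adjusted p = 0.0113). Its relative Cacna2d3 had 0.724, 0.467 and 0.754 CPM in cKO and 0.151, 0.0750 and 0.0504 CPM in WT (log2 2.75 ± 0.57, edgeR adjusted p = 0.0157, lost without cKO 3 or WT 2, at most 0.0727). The WT libraries of Cacna2d3 rested on 2 to 7 reads, so it met the minimum through cKO only, the group where it was higher. Cacnb1 and Cacng1, the other higher genes, are of the muscle type. Muscle also uses Cacna2d1, which it shares with other cells. Cacna2d1 was highest in cKO 2 and lowest in WT 2. In the fit with the level of muscle RNA as a covariate it had log2 0.22 ± 0.30 (edgeR adjusted p = 0.911). Cacnb3, a beta subunit of neurons, was 10.05 ± 0.968 CPM per kilobase in cKO and 9.55 ± 1.46 in WT and did not pass.

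Of 8 muscle-type channels 7 were tested, and 4 were called higher and 0 lower, beside the higher muscle RNA of cKO nerve. That is 57.1%, against 10.9% of all genes. The 7 had a median log2 fold change of 2.43, against 0.02 for all genes. Cacng1, the gamma subunit of the skeletal muscle calcium channel, had 19.9, 41.5 and 24.4 CPM in cKO and 6.92, 2.07 and 6.80 CPM in WT (log2 2.43 ± 0.43, edgeR adjusted p = 0.00868). Cacna1s, the voltage sensor of muscle contraction, had 12.7, 31.4 and 22.5 CPM in cKO and 7.23, 1.90 and 6.55 CPM in WT (log2 2.08 ± 0.47, edgeR adjusted p = 0.0224, lost without cKO 2 or cKO 3, at most 0.0832). Both were highest in cKO 2 and lowest in WT 2, and Cacna1s shares 20% of its exon bases with the opposite-strand gene Gm37759. Cacnb1, the beta subunit of the same complex, had 12.6, 26.4 and 16.6 CPM in cKO and 9.17, 5.77 and 8.69 CPM in WT (log2 1.23 ± 0.28, edgeR adjusted p = 0.0235, lost without cKO 2, cKO 3 or WT 2, at most 0.0756). Scn4a, the sodium channel of muscle fibres, had 1.24, 4.40 and 2.98 CPM in cKO and 0.909, 0.150 and 0.403 CPM in WT (log2 2.53 ± 0.64, edgeR adjusted p = 0.0374), and its call was lost without cKO 2, cKO 3, WT 2 or WT 3 (adjusted p up to 0.124) and with limma-voom.

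The 3 that were tested and did not pass had log2 changes of 2.41 to 2.75. Kcnj11, the pore of the ATP-sensitive channel, had 1.54, 5.76 and 3.23 CPM in cKO and 1.17, 0.00 and 0.580 CPM in WT (log2 2.56 ± 0.89). Cacng6, a gamma subunit, had 0.422, 1.67 and 1.04 CPM in cKO and 0.173, 0.00 and 0.277 CPM in WT (log2 2.75 ± 0.85). Kcna7, a potassium channel of muscle, had 0.271, 2.06 and 1.07 CPM in cKO and 0.151, 0.05 and 0.428 CPM in WT (log2 2.41 ± 0.84), and its groups overlapped. Cacng6 and Kcna7 passed with DESeq2, and Kcna7 also without WT 3. Clcn1, the chloride channel that steadies the resting potential of muscle, was not tested and had 0.241, 1.6 and 1.41 CPM in cKO and 0.238, 0.1 and 0.202 CPM in WT; it was called in the fit with no filter and without cKO 1. The 0 reads of Kcnj11 and Cacng6 in WT 2 still allow 0.075 CPM on the TMM scale, taking 3 reads as the limit.

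Set against muscle RNA, the groups overlapped for 6 of the 8 channels. The 14 muscle genes averaged 6679 CPM in cKO and 1246 CPM in WT, a ratio of 5.36. Per 1000000 CPM of these muscle genes, Cacng1 came to 4398, 4372 and 4045 in cKO and to 4048, 4578 and 4320 in WT, so its groups overlapped. Scn4a, Cacng6, Clcn1, Kcna7 and Kcnj11 also overlapped on this scale. Cacna1s was lower in every cKO library (2816, 3306 and 3743) than in WT (4225, 4192 and 4160). So was Cacnb1, at 2783, 2785 and 2758 in cKO and 5363, 12741 and 5520 in WT. The Cacnb1 ratio was highest in WT 2, which had the least muscle RNA, and whether other cells add Cacnb1 RNA was not tested.

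**Figure D4:**
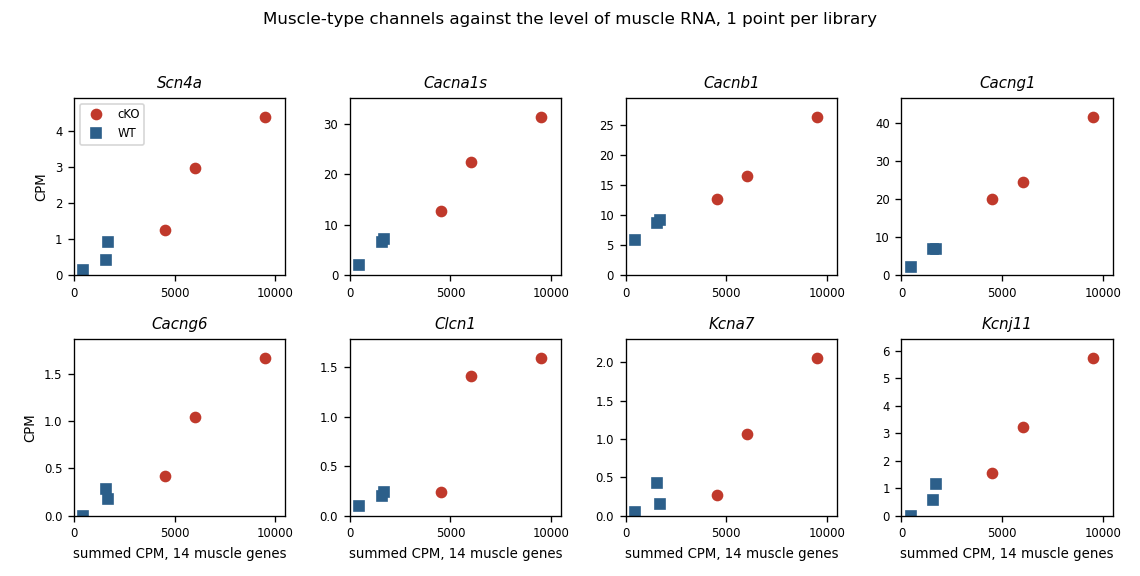
CPM of the 8 muscle-type channel genes (y axis) against the summed CPM of 14 skeletal muscle genes (x axis), 1 point per library, circles for cKO and squares for WT. In every panel the WT points lie at 1710 CPM of muscle RNA or less and the cKO points at 4518 CPM or more.

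With the muscle level as a covariate, 0 channel genes were called higher and 1 lower, against 0.284% of all genes in that fit. The called one was Scn7a (log2 -3.03 ± 0.37, edgeR adjusted p = 0.0318). All 13 lower genes kept their sign there, as did 8 of the 12 higher ones; the 4 that turned were Cacna1s, Cacnb1, Scn4a and Kcnc4. The median SE of the 25 genes was 0.439 in that fit and 0.295 without the covariate. Both genotype and muscle level separate the same libraries, so they cannot be told apart for genes of either direction.

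**Figure D5:**
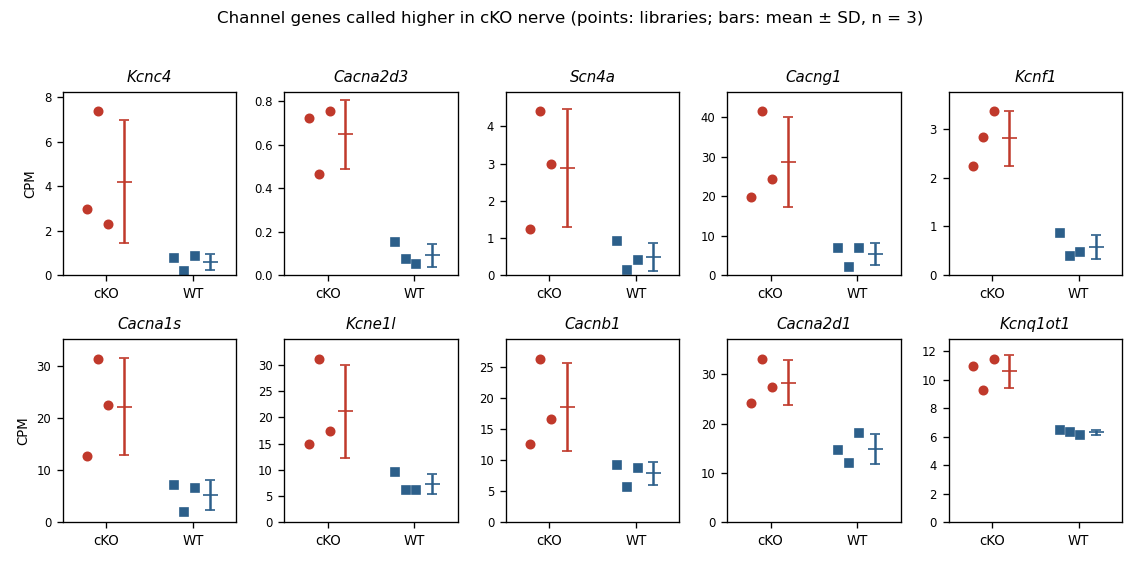
CPM (y axis, from 0) of genes called higher, in 3 cKO (circles) and 3 WT (squares) libraries, with mean ± SD. The cKO points lie above the WT points in every panel. The middle cKO point, cKO 2, is the highest for all 4 muscle-type genes shown and also for Cacna2d1, Kcnc4 and Kcne1l. In all, 9 of the 12 higher genes were highest in cKO 2, as were 31 of the 106 tested channel genes, which include them. The higher genes could be highest only in a cKO library, because their groups do not overlap. The 106 could be highest in any library, so these shares cannot be compared.

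Of the HCN channels, which open on hyperpolarization, Hcn2, with 2.11, 2.30 and 2.86 CPM in cKO and 2.16, 1.45 and 2.22 CPM in WT (log2 0.32 ± 0.28), and Hcn3 (-0.64 ± 0.53) did not pass.

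Of 6 tested CLC genes 2 were lower, or 33.3%, against 10.9% of all genes. Clcn2, a chloride channel of the cell surface needed for intact myelin in the brain of mice, had 20.5, 22.8 and 21.4 CPM in cKO and 39.6, 36.2 and 38.6 CPM in WT (log2 -0.82 ± 0.10, edgeR adjusted p = 0.00142; chromosome 16, 20702964 to 20717746). Clcn3, a chloride-proton exchanger of endosomes, had 69.8, 84.0 and 71.9 CPM in cKO and 130, 150 and 151 CPM in WT (log2 -0.93 ± 0.10, edgeR adjusted p = 0.00108). Both had small spreads and wide gaps between the groups. Clcn4-2, the highest of the class per kilobase, had 114, 119 and 126 CPM in cKO and 136, 149 and 148 CPM in WT (log2 -0.27 ± 0.08, edgeR adjusted p = 0.0745) and passed with DESeq2 only. Clcn7, the lysosomal exchanger, was 43.2, 46.5 and 44.1 CPM in cKO and 43.2, 43.0 and 39.6 CPM in WT (log2 0.09 ± 0.09) and did not pass, nor did its subunit Ostm1 (log2 -0.07 ± 0.09).

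No TRP channel was called. As edgeR called 10.9% of all genes, 0 calls among so few genes do not set TRP channels apart. Of 13 tested, 0 passed by edgeR, DESeq2 or limma-voom, 2 had an unadjusted edgeR p under 0.05 (Trpm4, log2 0.31 ± 0.11, and Trpm6, -0.82 ± 0.34), and Trpm4 passed with total counts only. Trpm7, a channel joined to a kinase, had 79.5, 82.0 and 90.8 CPM in cKO and 98.0, 96 and 92.6 CPM in WT (log2 -0.18 ± 0.08, edgeR adjusted p = 0.216). It was the most abundant TRP channel per kilobase, at 7.43 ± 0.522 CPM per kilobase in cKO and 8.45 ± 0.242 in WT. Trpv2 had 5.10, 4.87 and 5.43 CPM in cKO and 3.94, 3.22 and 5.14 CPM in WT, with overlap. The heat and capsaicin receptor Trpv1 of sensory neurons was at 0.181, 0.545 and 0.722 CPM in cKO and 0.433, 0.475 and 0.454 CPM in WT, and Trpa1 was under the minimum.

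Grouped by the cell they are known from, channels of axons and sensory neurons had 1 higher and 3 lower of 11 tested. Scn3b and Scn9a were among the lower. That is 36.4%, against 10.9% of all genes, with a median log2 fold change of 0.08. Of 10 neuronal marker genes, which summed to 98.07 to 135.9 CPM in cKO and 92.97 to 107.4 CPM in WT, 8 were tested and 0 were called by edgeR or DESeq2, with 2 at an unadjusted edgeR p under 0.05. Vascular (6 tested) and immune (3 tested) channels had 0 edgeR calls each, 2 genes each at an unadjusted p under 0.05, and 0 and 1 DESeq2 calls (Kcnk13, lower). Of 5 mast cell markers 2 were higher with edgeR and 4 with DESeq2, and 5 had an unadjusted edgeR p under 0.05 (113.9 to 229.6 CPM in cKO, 77.94 to 100.4 in WT). With edgeR 0 were called of 5 macrophage, 5 endothelial, 5 fibroblast, 3 perineurial, 6 smooth muscle and 5 adipocyte markers tested, and with DESeq2 these 6 lists had 1 call, a perineurial gene. At an unadjusted edgeR p under 0.05 were 0 macrophage, 2 endothelial, 1 fibroblast, 1 perineurial, 1 smooth muscle and 0 adipocyte markers. Adipocyte genes summed to 301.9 to 418.6 CPM in cKO and 88.17 to 406.2 CPM in WT, high in WT 3. The part of these cells in the channel results was not tested.

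In all, 4 rows carry a channel symbol without being channels. Kcnq1ot1, an imprinted antisense RNA inside Kcnq1, was higher, with 11.0, 9.27 and 11.5 CPM in cKO and 6.47, 6.32 and 6.15 CPM in WT (log2 0.75 ± 0.15, edgeR adjusted p = 0.0145, lost without cKO 3, WT 1 or WT 2, at most 0.0860), while Kcnq1 was not called (log2 0.76 ± 0.37). Kcnrg, a regulator of potassium channels, was lower, with 0.874, 0.584 and 0.974 CPM in cKO and 2.01, 2.75 and 1.97 CPM in WT (log2 -1.45 ± 0.33, edgeR adjusted p = 0.0228, lost without cKO 1, cKO 2, cKO 3 or WT 2, at most 0.0962). Kcnmb4os2 and Trpc4ap were not called.

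Partners of channels were mostly not called: of 18 tested, 2 were higher and 1 lower, or 16.7%, against 10.9% of all genes, with a median log2 fold change of 0.26. Ank3, which encodes ankyrin G, the anchor of sodium channels at nodes, had 72.4, 89.0 and 85.1 CPM in cKO and 137, 159 and 133 CPM in WT, without overlap (log2 -0.80 ± 0.11, edgeR adjusted p = 0.00279). Atp1b1, a beta subunit of the sodium pump, had 22.8, 20.3 and 25.3 CPM in cKO and 9.78, 7.97 and 14.1 CPM in WT (log2 1.1 ± 0.20, edgeR adjusted p = 0.00996). Stac3, which couples Cacna1s in skeletal muscle, was higher, with 2.92, 7.67 and 5.34 CPM in cKO and 1.67, 0.750 and 1.69 CPM in WT (log2 1.95 ± 0.42, edgeR adjusted p = 0.0190).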

How the data were processed

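RNA of mouse sciatic nerve was sequenced from Illumina TruSeq libraries, per the labels' protocols. The deposited values are raw counts of reads for each gene symbol, with no normalization. TopHat2 2.0.13, HTSeq and mm10 are named in the submitters' processing notes; neither the annotation nor the strand setting is given there. HTSeq's closing lines (12.07% to 14.26% of counts in no gene, 1.635% to 2.818% shared between genes) were left out.

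The cKO and WT libraries were tested against each other in edgeR 4.0.16 (R 4.3.3), with filterByExpr at a minimum count of 10 (14789 genes), TMM factors and the quasi-likelihood test with genotype as the only term. SE is the log2 fold change over the square root of F. Alternatives were other scalings and filters, DESeq2 1.42.0, limma-voom (limma 3.58.1), a replicate block, the muscle level as a covariate and each library left out. Positions and exon lengths came from GENCODE M21 (GRCm38, as mm10) for 110 of 110 genes, with 2 older symbols matched through RefSeq synonyms.

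Any channel gene could be named; values per library are given for called genes, muscle-type channels and the most abundant gene of each class, apart from some that are not reported here. Members and lists were chosen with earlier results of these data known. The design text counts mice, so libraries were taken as separate animals; replicates differed by more than counting noise (chi-square per degree of freedom at least 13.4). On simulated counts for this comparison (14668 genes), edgeR called 15 of 67 genes changed by log2 0.5, 51 of 67 by 1 and 61 of 66 by 2. It also called 19 of 14468 unchanged genes. These false calls were a larger share of the simulated calls than the adjusted p threshold aims for. Far fewer genes were changed in the simulation than the 1618 called in the data, so its recovery need not hold for the channel genes. Limits for 0 reads cover counting error only.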

Additional observations from a re-analysis of the deposited data

How the results depend on the processing

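Scn7a kept its direction and its call in each of the 16 other settings, from -2.995 to -2.641 on the log2 scale when 1 library was left out. Left-out libraries gave 5 to 15 channel genes higher and 9 to 13 lower, 4 to 11 and 9 to 13 outside the muscle-type list, 1 to 5 muscle-type genes higher, and a median log2 fold change of 0.088 to 0.143. Among these fits the count of higher genes was lowest without cKO 3 (5), cKO 2 (6) and WT 2 (6), where 14, 16 and 16 of the 25 calls remained. Those fits also called fewer of all genes, at 735, 1072 and 984, against 1618 in the main fit and 2195 without WT 3. The lower counts are therefore not particular to channel genes. Total counts shifted the median of all genes by 0.124 and that of channel genes to 0.210, with 15 higher and 12 lower. They gave 1879 calls over all genes. DESeq2 called 17 higher and 17 lower, all 25 among them, and 2254 of all genes. With the replicate block, 5 were higher and 11 lower, 4 higher outside the muscle-type list and 1 higher within it, and Kcna2 was added to the lower ones. The block fit called 1104 of all genes. The labels tie the replicate numbers to nothing shared, and same-numbered libraries had correlated deviations of -0.207, -0.122 and 0.072, so not every library correlated best with its own number. With the muscle covariate, 0 were higher and 1 lower (0 higher and 1 lower outside the muscle-type list, 0 muscle-type genes higher), the median was -0.151, and 7 genes reversed: Cacna1s (-0.556), Cacnb1 (-0.070), Kcnc4 (-0.097), Scn4a (-0.811), Cacng6 (-2.027), Kcna7 (-2.005) and Kcnj11 (-2.924), none called. With the filter of 50 counts, 79 channel genes were tested. The cause of these moves was not tested.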

Other observations

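Channels outside the symbol families were also read from a list of 30, of which 27 were tested. Of these, 3 were higher and 0 lower, or 11.1%, a share near the 10.9% of all genes. Orai1, the pore of store-operated calcium entry, had 22.6, 20.3 and 21.4 CPM in cKO and 14.9, 16.2 and 14.4 CPM in WT (log2 0.50 ± 0.11, edgeR adjusted p = 0.0225), and its sensors Stim1 (log2 0.17 ± 0.19) and Stim2 (-0.14 ± 0.09) did not pass. Ryr1, the calcium release channel of skeletal muscle, had 19.5, 47.1 and 29.3 CPM in cKO and 9.26, 2.55 and 6.88 CPM in WT (log2 2.35 ± 0.45, edgeR adjusted p = 0.0114), the same order of libraries as muscle RNA within cKO. Ryr2 was under 1 CPM in every library (log2 2.87 ± 0.71, edgeR adjusted p = 0.0327). The mechanically gated channels Piezo1 (log2 0.08 ± 0.22) and Piezo2 (0.14 ± 0.09) did not pass, and neither did the 4 volume-regulated Lrrc8 genes tested.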
